A study of Mus musculus with 4 samples.

Results

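The genes described here build the brush border, the carpet of microvilli on the apical face of the absorptive intestinal cell, and carry membrane and cargo to it. They are 31 genes chosen by function: 9 bundlers and other actin regulators, 7 myosins, 4 members of the tip-link complex, 6 membrane scaffolds and 5 genes of vesicle trafficking. The choice rests on known roles rather than on measured values, though it was made with earlier results of these data known. All 31 were found among the 22462 gene symbols of the expression table. The study profiled epithelium of the adult mouse jejunum by RNA-seq, on a mixed background labelled 129xC57/Bl6xSvJ, in 4 libraries described as biological replicates. The control group was 2 Cre- mice, and the other group was 2 mice labelled Hnf4a-/-;Cdx2-/-, a double knockout of 2 transcription factors of the intestinal epithelium. Every mouse received 1 mg of tamoxifen on each of 5 days to activate Cre, so the controls had the drug but not the recombinase. No source used here names the Cre driver, the exons removed or the time of collection.

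The comparison asks how expression differs between the 2 genotypes, and the targeted genes serve as a check of the labels. Hnf4a stood at 156 and 202 FPKM (a level scaled to transcript length and library size) in the controls and at 31.6 and 48.2 in the labelled mutants, and it fell (limma, adjusted p = 0.0147). Cdx2 stood at 70.9 and 65.2 FPKM in the controls and at 159.8 and 161.0 in the labelled mutants, and it rose (limma, adjusted p = 0.0150), which goes against its label. A gene-level FPKM can include exons outside a deleted part, so it does not show whether Cdx2 was deleted. The second group is therefore called the labelled knockouts, and each direction below rests on the labels. Without control replicate 1 or 2 the limma adjusted p was 0.0647 and 0.0885 for Hnf4a and 0.0712 and 0.0887 for Cdx2. For Cdx2 it was 0.0503 without labelled knockout replicate 1 and 0.0596 without replicate 2.

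As background, a microvillus holds a core of parallel actin filaments crosslinked by bundling proteins and tied to the membrane by class I myosins and ezrin. Protocadherins at the tips of neighbouring microvilli bind each other and are anchored by a complex with harmonin and a myosin. Scaffold proteins with PDZ domains hold transporters and channels below the apical membrane, and vesicles reach that membrane from recycling endosomes through small GTPases, a myosin V motor and syntaxin 3. Loss of the motor or the syntaxin machinery in people causes microvillus inclusion disease.

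The promoter sequences of genes called in the comparison, in either direction, are shown because the 2 targeted factors bind DNA. Whether either factor binds these windows was not tested. RefSeq promoter windows (build GRCm38.p6, 250 bases before to 50 after an annotated start) were present for 25 of the 31 genes, in 33 windows. Myo7b, also called, is named only. Capitals mark the motifs searched on both strands, which were CAAAGTCCA and CAAAGGTCA for HNF4 and TTTATGG and TTTATTG for CDX. No window held more than 1 match. Pdzk1 has 2 windows, at chr3:96829815-96830114, plus strand, and at chr3:96831921-96832220, plus strand. Tmigd1 has 2, at chr11:76890870-76891169, plus strand, and at chr11:76901909-76902208, plus strand. Vil1 lies at chr1:74409134-74409433, plus strand, and Baiap2l1 at chr5:144358063-144358362, minus strand.
Pdzk1, first start: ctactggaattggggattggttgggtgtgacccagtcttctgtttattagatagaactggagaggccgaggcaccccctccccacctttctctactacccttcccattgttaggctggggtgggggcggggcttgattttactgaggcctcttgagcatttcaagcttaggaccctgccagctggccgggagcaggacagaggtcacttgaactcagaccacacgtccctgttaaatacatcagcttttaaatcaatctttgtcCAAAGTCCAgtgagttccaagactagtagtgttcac
Pdzk1, second start: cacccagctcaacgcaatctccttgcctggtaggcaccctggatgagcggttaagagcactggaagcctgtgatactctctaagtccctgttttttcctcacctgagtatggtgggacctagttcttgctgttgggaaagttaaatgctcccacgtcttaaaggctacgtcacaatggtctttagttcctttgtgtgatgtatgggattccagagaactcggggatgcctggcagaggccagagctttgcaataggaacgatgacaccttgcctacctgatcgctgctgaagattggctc
Tmigd1, first start: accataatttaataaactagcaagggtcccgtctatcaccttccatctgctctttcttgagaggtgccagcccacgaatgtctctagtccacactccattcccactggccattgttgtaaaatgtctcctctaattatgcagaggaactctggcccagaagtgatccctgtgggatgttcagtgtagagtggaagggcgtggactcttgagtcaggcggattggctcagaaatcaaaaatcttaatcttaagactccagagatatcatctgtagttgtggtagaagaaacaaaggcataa
Tmigd1, second start: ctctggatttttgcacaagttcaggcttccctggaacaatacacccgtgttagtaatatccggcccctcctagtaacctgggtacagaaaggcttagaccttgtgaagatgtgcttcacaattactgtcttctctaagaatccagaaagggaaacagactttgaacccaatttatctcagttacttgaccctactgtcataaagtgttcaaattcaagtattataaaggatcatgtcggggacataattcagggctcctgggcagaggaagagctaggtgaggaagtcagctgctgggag
Vil1: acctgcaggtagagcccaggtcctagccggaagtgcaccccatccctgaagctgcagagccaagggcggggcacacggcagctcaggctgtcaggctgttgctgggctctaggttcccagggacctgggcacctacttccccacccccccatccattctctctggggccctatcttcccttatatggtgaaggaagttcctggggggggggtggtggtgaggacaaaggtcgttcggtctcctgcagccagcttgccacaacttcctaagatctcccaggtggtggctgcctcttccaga
Baiap2l1: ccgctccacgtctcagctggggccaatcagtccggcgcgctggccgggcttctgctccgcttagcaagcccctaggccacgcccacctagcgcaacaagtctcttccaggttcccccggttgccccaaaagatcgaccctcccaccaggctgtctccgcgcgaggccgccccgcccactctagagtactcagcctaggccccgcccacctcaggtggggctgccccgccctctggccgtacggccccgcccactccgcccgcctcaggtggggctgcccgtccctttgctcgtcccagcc

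Of the 33 windows 1 held an HNF4 motif, the first Pdzk1 window, where CAAAGTCCA begins at base 265 of the 300. The same motifs were found in 0.950% of the 32851 windows of the RefSeq table and in 0.891% of the 10441 windows of genes tested. A CDX motif was found in 2 member windows, of Espn and Myo1e, or 6.06%, against 7.20% of all windows and 4.32% of those of genes tested. A match describes the letters of the window, and its absence says only that these letters are not in it.

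Across the 31 genes 4 fell (Pdzk1, Tmigd1, Myo7b and Vil1) and 1 rose (Baiap2l1) in the labelled knockouts at a limma adjusted p under 0.05, and 26 were not called. That is 16.1% of the 31 genes, while 9.56% of the 10885 genes tested were called. By direction, 12.9% of the 31 fell against 5.80% of all genes, and 3.23% rose against 3.77%. The median difference in log2(FPKM + 1), labelled knockout minus control, was -0.47 over the 31 genes and 0.02 over all genes tested. At an unadjusted limma p under 0.05, 15 genes stood lower and 6 higher, which is 48.4% and 19.4% of the 31 against 15.0% and 13.3% of all genes. In 20 of the 31 genes both labelled knockouts lay below both controls, and in 7 they lay above, while groups that do not overlap made up 29.5% (lower) and 31.2% (higher) of all genes. In bulk epithelium fewer cells of a type and less RNA per cell cannot be told apart.

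**Figure D1:**
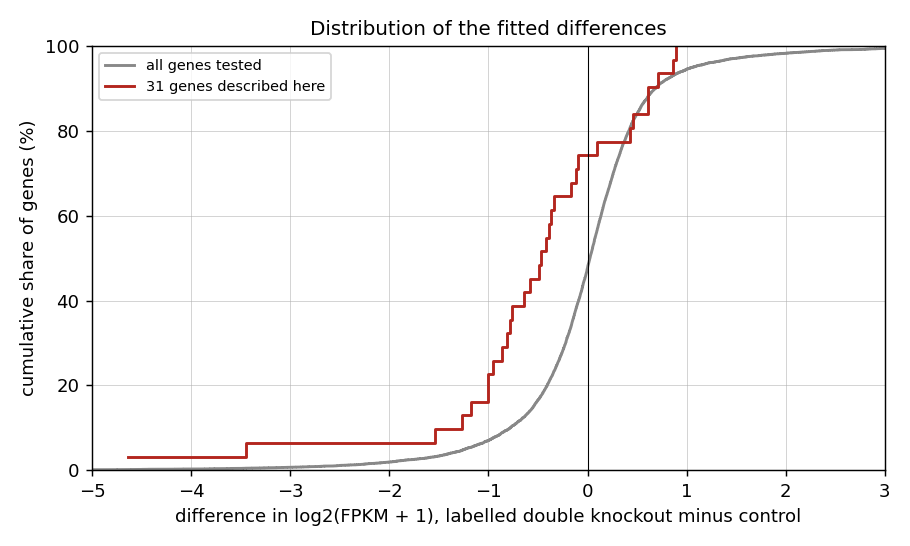
Cumulative share of genes (y axis, %) at or below each difference in log2(FPKM + 1), labelled knockout minus control (x axis), for the 31 genes and for all 10885 genes tested; the x axis is cut at -5 and 3. The curve of the 31 genes lies to the left over most of its range, with medians of -0.47 and 0.02, and meets that of all genes on the right.

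Leaving out a library leaves 1 in its group, which is then assumed to vary like the other group, and fewer genes pass overall (157 to 685 against 1041). Which of the 31 genes were called then changed with the library left out, and only Tmigd1 was called in each of these fits. Without labelled knockout replicate 1, Cobl and Pdzd3 were called, and Vil1 and Baiap2l1 were not. The median difference in these fits was between -0.49 and -0.44. Over all genes 410 rose and 631 fell. With FPKM estimated for each library alone these counts were 482 and 451, the median of all genes moved to 0.17, and that of the 31 genes to -0.31, so both medians moved upward.

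**Figure D2:**
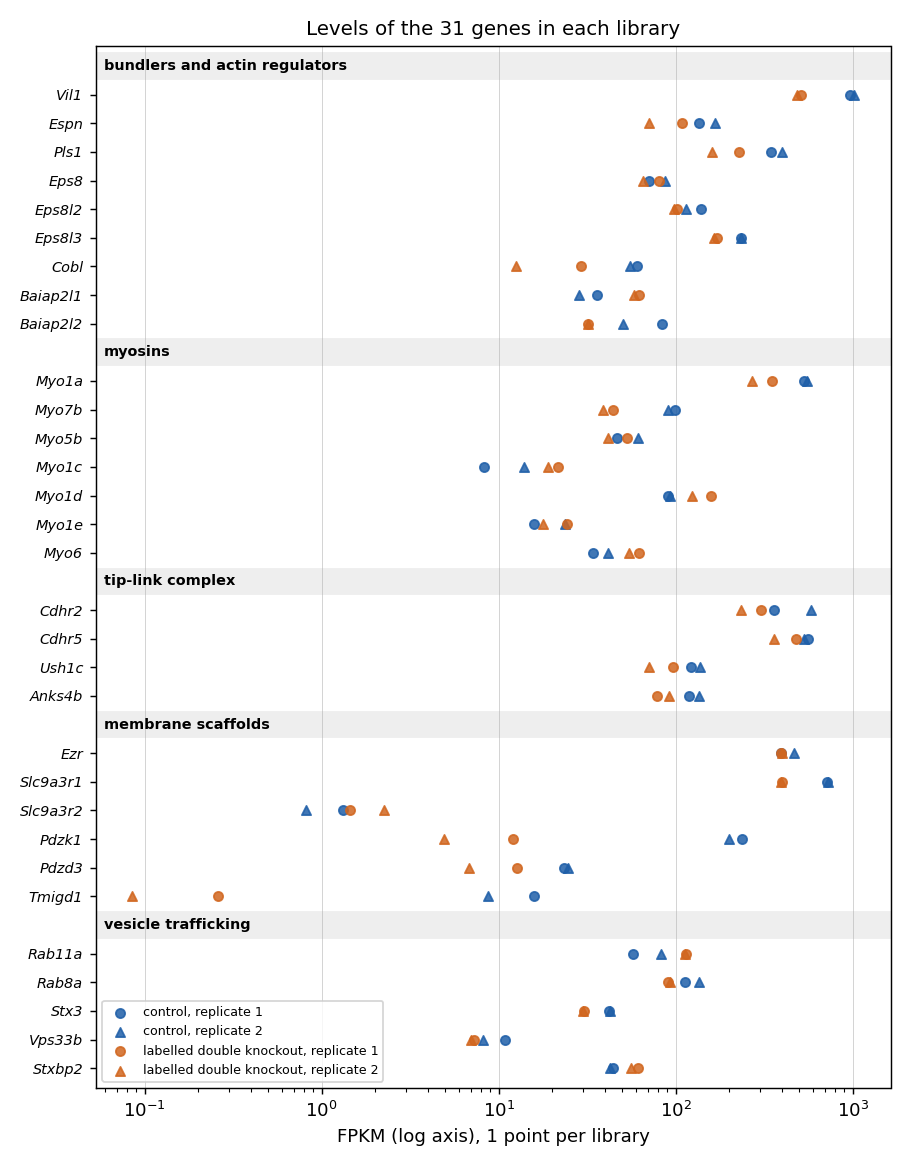
FPKM (log axis) of the 31 genes by role, 1 point per library, circles for replicate 1 and triangles for replicate 2 of each group. Pdzk1 and Tmigd1 show the widest gaps between the groups, and Eps8, Myo5b, Myo1e and Ezr overlap.

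Of the 9 bundlers and actin regulators 1 fell (Vil1), 1 rose (Baiap2l1) and 7 were not called, at a median difference of -0.77. Vil1 (chromosome 1, 74455958 to 74482134, mm9) encodes villin, which bundles and severs actin filaments, and had the highest level of the 31 genes in both groups. It stood at 970 and 1024 FPKM in the controls and at 508 and 487 in the labelled knockouts, 49.9% of the control mean (95% interval of the log2 difference -1.49 to -0.51, limma, adjusted p = 0.0411). Values within each group were close together and the groups far apart. Leaving out any single library ended the call (limma, adjusted p = 0.105 to 0.161), at differences of -1.04 to -0.96. Usp37, a ubiquitin protease gene whose locus overlaps the end of Vil1 by 51 bases, stood at 14.2 and 15.3 FPKM in the controls and at 6.80 and 7.47 in the labelled knockouts (limma, adjusted p = 0.0273). Whether reads were assigned by strand is not stated in the labels.

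Pls1, encoding plastin 1 (fimbrin), another bundler of the core, stood at 347 and 399 FPKM in the controls and at 228 and 161 in the labelled knockouts, or 52.1% of the control mean (limma, adjusted p = 0.0723). Espn, encoding espin, the third bundler, stood at 135 and 167 against 109 and 71.0 FPKM (59.5% of the control mean; limma, adjusted p = 0.138). For both genes the labelled knockouts lay below the controls, as in 29.5% of all genes tested, and labelled knockout replicate 2 was the lowest library. The 95% intervals of the log2 differences were -1.56 to -0.35 for Pls1 and -1.44 to -0.09 for Espn, and both contain the value of Vil1.

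Of the Eps8 family, Eps8 binds and caps actin filaments at microvillus tips. Eps8 itself stood at 71.2 and 87.6 FPKM in the controls and at 80.7 and 65.9 in the labelled knockouts, with overlapping groups (difference -0.11, 95% interval -0.62 to 0.39). Its relatives stood a little lower in the labelled knockouts. Eps8l3, the most abundant of the family here, stood at 234 and 236 against 171 and 165 FPKM (limma, adjusted p = 0.128), and Eps8l2 at 139 and 114 against 102 and 98.1 (limma, adjusted p = 0.284). Both Eps8l2 and Eps8l3 share locus with a less abundant transcript, B230206H07Rik (10.1 to 16.9 FPKM) and 4933431E20Rik (21.0 to 40.3).

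Of the remaining 3 actin regulators 1 was called. Cobl, encoding the actin nucleator cordon-bleu, stood at 60.2 and 55.5 FPKM in the controls and at 29.2 and 12.5 in the labelled knockouts, 36.1% of the control mean (difference -1.54, limma, adjusted p = 0.0786). The distance between its labelled knockouts was larger than that between its controls, and without labelled knockout replicate 1 it passed the threshold (limma, adjusted p = 0.0178). Baiap2l1 (chromosome 5, 145025394 to 145118981, mm9), encoding the membrane-bending protein IRTKS, was the only gene of the 31 called higher. It rose from 36.1 and 28.4 FPKM in the controls to 62.0 and 58.5 in the labelled knockouts, 1.87-fold (difference 0.89 ± 0.18, SE, limma, adjusted p = 0.0481). Of the 5 calls this was nearest to the threshold, and it was lost when any library was omitted (limma, adjusted p = 0.0842 to 0.159, at differences of 0.72 to 1.06) and without the intensity trend (0.0559). Among genes whose locus overlaps that of Baiap2l1, Bri3 (49 bases) stood at 42.6 and 43.4 FPKM in the controls and at 32.0 in both labelled knockouts. Dmr (190 bases) stood at 1.99 and 2.30 against 4.51 and 3.79 FPKM, and Gm15708 (3454 bases) at 0.440 or less in every library. Its relative Baiap2l2, encoding pinkbar, which shapes flat membrane sheets, stood at 84.1 and 50.7 FPKM in the controls and at 32.1 and 32.0 in the labelled knockouts (95% interval of the difference -1.70 to -0.31, limma, adjusted p = 0.0855).

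**Figure D3:**
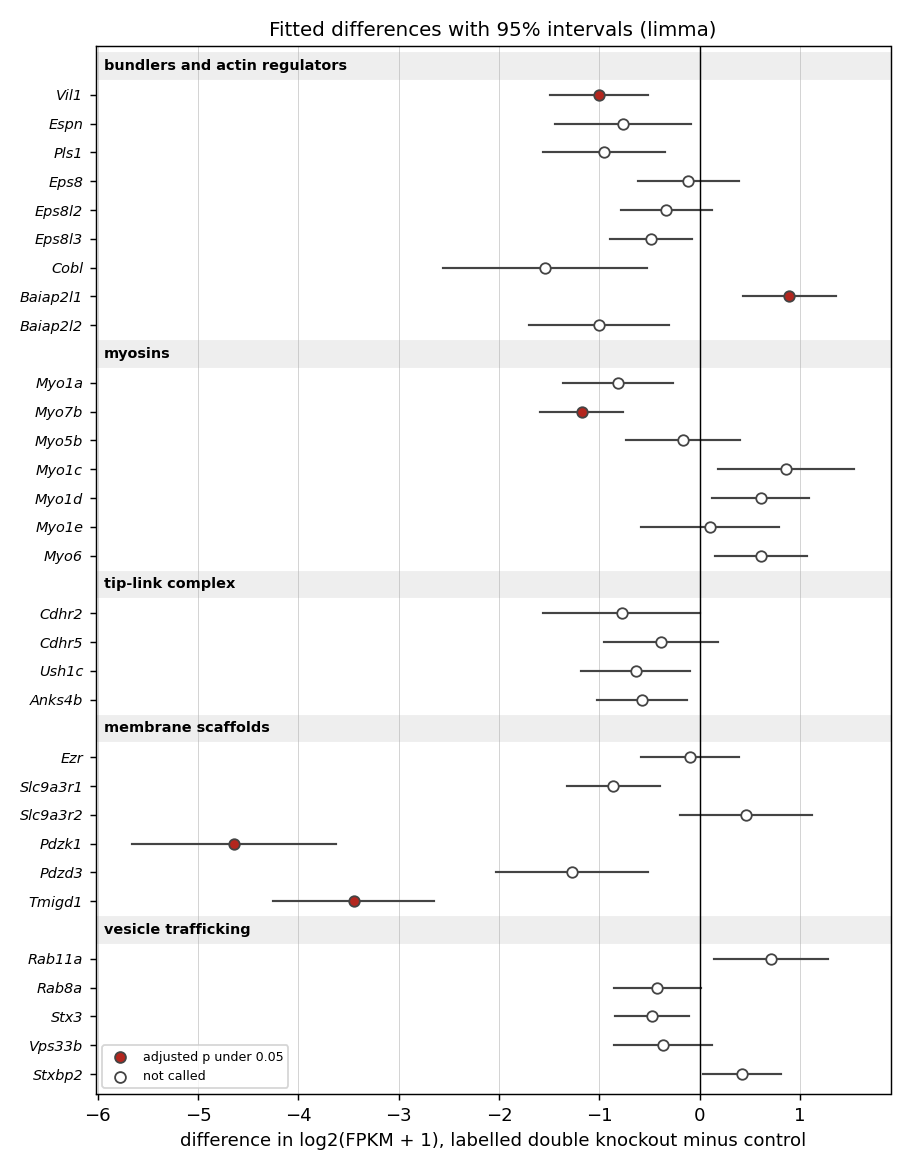
Difference in log2(FPKM + 1), labelled knockout minus control (x axis), for each of the 31 genes by role, with 95% intervals from limma; filled points passed an adjusted p under 0.05. The 5 filled points are Vil1, Baiap2l1, Myo7b, Pdzk1 and Tmigd1, and the intervals of 10 of the other genes include 0.

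Of the 7 myosins 1 fell, 0 rose and 6 were not called, with 2 lower and 3 higher at an unadjusted limma p under 0.05 and differences from -1.18 to 0.86. Myo7b (chromosome 18, 32118888 to 32196585, mm9), the motor that holds the tip-link complex at microvillus tips, stood at 99.2 and 90.9 FPKM in the controls and at 44.3 and 38.7 in the labelled knockouts. This was a 2.29-fold fall (difference -1.18 ± 0.16, SE, limma, adjusted p = 0.0181), with the groups well apart. The call was lost without control replicate 1, control replicate 2 or labelled knockout replicate 2 (limma, adjusted p = 0.0870, 0.0876 and 0.0750). Myo1a, brush border myosin I, which ties the actin core to the side membrane, stood at 528 and 553 FPKM in the controls and at 352 and 269 in the labelled knockouts (57.4% of the control mean; limma, adjusted p = 0.0825).

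The other myosins stood higher or had overlapping groups, and none of them was called. Myo1d, a class I myosin also found in the brush border, stood at 91.0 and 92.6 FPKM in the controls and at 159 and 124 in the labelled knockouts (limma, adjusted p = 0.114). Myo6, which walks towards the base of the microvillus, stood at 34.3 and 41.6 against 62.0 and 54.5 FPKM (95% interval of the difference 0.15 to 1.07, not called). Myo1c stood at 8.32 and 13.9 against 21.8 and 19.1 FPKM (limma, adjusted p = 0.112). In all 3 the labelled knockouts lay above the controls, an order that 31.2% of all genes tested share, but none passed the threshold. Only Myo6 did so in any alternative run, with FPKM estimated for each library alone (limma, adjusted p = 0.0474), where the median of all genes was 0.17.

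Myo5b, the motor of recycling endosomes, stood at 46.4 and 61.1 FPKM in the controls and at 53.5 and 41.7 in the labelled knockouts, with overlapping groups (difference -0.17, 95% interval -0.74 to 0.40). Myo1e, a long-tailed class I myosin, also overlapped, at 15.8 and 23.8 against 24.5 and 17.7 FPKM (difference 0.10, 95% interval -0.59 to 0.78). Both intervals end above the difference of Myo7b.

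Of the 4 genes of the tip-link complex 0 passed the threshold at a limma adjusted p under 0.05, while 2 (Ush1c and Anks4b) had an unadjusted limma p under 0.05. In all 4 the labelled knockouts lay below the controls, an order that 29.5% of all genes tested share, with differences from -0.78 to -0.39. Cdhr2, encoding a protocadherin of the links, stood at 359 and 584 FPKM in the controls and at 304 and 233 in the labelled knockouts (limma, adjusted p = 0.179), so that the controls differed from each other by more than the lower control differed from the higher labelled knockout. Its partner Cdhr5 stood at 559 and 530 against 478 and 361 FPKM (limma, adjusted p = 0.312). Ush1c, encoding harmonin, the adaptor that ties the protocadherins to the core, stood at 122 and 137 against 96.6 and 71.0 FPKM (limma, adjusted p = 0.129). Anks4b, encoding the further adaptor that joins harmonin to Myo7b, stood at 119 and 135 against 78.2 and 91.2 FPKM (limma, adjusted p = 0.109).

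The deepest falls of the 31 genes were in the membrane scaffolds, where 2 of 6 fell, 0 rose and 4 were not called (4 lower and 0 higher at an unadjusted limma p under 0.05). Pdzk1 (chromosome 3, 96633988 to 96674849, mm9) encodes a scaffold with several PDZ domains that binds apical transporters. It stood at 236 and 201 FPKM in the controls and at 12.0 and 4.91 in the labelled knockouts, 3.88% of the control mean (a 25.8-fold fall; difference -4.64 ± 0.40, SE, limma, adjusted p = 0.00718). Its place among the 31 genes by mean level went from 9 in the controls to 28 in the labelled knockouts. Without control replicate 1 or 2 the limma adjusted p was 0.0591 and 0.0582.

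Tmigd1 (chromosome 11, 76718047 to 76730088, mm9), encoding an adhesion molecule with immunoglobulin domains at the epithelial surface, stood at 15.8 and 8.71 FPKM in the controls and at 0.260 and 0.0849 in the labelled knockouts. That is 1.41% of the control mean (difference -3.45 ± 0.31, SE, limma, adjusted p = 0.00805). The pseudocount of 1 shrinks a difference that ends this low, and the gene passed the filter on low values only through its controls. It was the only gene of the 31 called in all 13 alternative fits.

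Of the PDZ scaffolds other than Pdzk1, Slc9a3r1 and Pdzd3 stood lower and Slc9a3r2 stood higher, and none was called. Slc9a3r1, encoding EBP50 (NHERF1), which links ezrin to membrane proteins, stood at 720 and 728 FPKM in the controls and at 402 and 393 in the labelled knockouts. Its groups were each tight and far apart (54.9% of the control mean; difference -0.86, limma, adjusted p = 0.0509), and it passed the threshold in 3 of 13 alternative fits. Pdzd3, encoding the scaffold NHERF4, stood at 23.5 and 24.5 against 12.7 and 6.83 FPKM (difference -1.27, limma, adjusted p = 0.0636), and without labelled knockout replicate 1 the limma adjusted p was 0.0298. Slc9a3r2, encoding NHERF2, was scarce in all libraries, at 1.33 and 0.821 against 1.46 and 2.26 FPKM (limma, adjusted p = 0.307).

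Ezr, encoding ezrin, the crosslinker between actin core and membrane, stood at 392 and 464 FPKM in the controls and at 396 and 402 in the labelled knockouts. Its groups overlapped (difference -0.10, 95% interval -0.59 to 0.39). By mean level Ezr was in place 6 of the 31 in the controls and 3 in the labelled knockouts, while Slc9a3r1 went from 2 to 4. In the labelled knockouts their means were nearly equal, at 399 FPKM for Ezr and 397 for Slc9a3r1. In labelled knockout replicate 1 Slc9a3r1 stood above Ezr (402 against 396).

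None of the 5 trafficking genes passed the threshold (limma), while 3 had an unadjusted limma p under 0.05, 2 of them higher (Rab11a and Stxbp2) and 1 lower (Stx3). Rab11a, the small GTPase of recycling endosomes, stood at 57.6 and 82.7 FPKM in the controls and at 114 and 113 in the labelled knockouts (difference 0.71, limma, adjusted p = 0.114). Rab8a, the GTPase that acts after it on the way to the apical membrane, stood at 113 and 135 against 91.1 and 93.1 FPKM (difference -0.42, limma, adjusted p = 0.188). The spread between controls was wider than that between labelled knockouts for both.

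Stx3, the syntaxin of apical fusion, stood at 41.9 and 42.6 FPKM in the controls and at 30.4 and 29.9 in the labelled knockouts, 71.3% of the control mean with little spread (limma, adjusted p = 0.108). Its binding partner Stxbp2, encoding Munc18-2, stood on the other side, at 44.2 and 42.8 against 61.6 and 56.0 FPKM (limma, adjusted p = 0.148). Vps33b, which sorts apical cargo with Vipas39, stood at 10.9 and 8.21 against 7.26 and 6.96 FPKM (limma, adjusted p = 0.274).

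Related genes were also set against each other within each library, as a ratio of FPKM and with no test. Baiap2l1 over Baiap2l2 was 0.429 and 0.560 in the controls and 1.93 and 1.83 in the labelled knockouts, so the order of the pair by level was the reverse. Rab11a over Rab8a likewise went from 0.507 and 0.613 to 1.25 and 1.21. Myo1a over Myo1d was 5.81 and 5.97 in the controls and 2.22 and 2.17 in the labelled knockouts, with close values within each group. Slc9a3r1 over Slc9a3r2 was 543 and 886 against 276 and 174, a ratio that rests on the low level of Slc9a3r2. Cdhr2 over Cdhr5 was 0.643 and 1.10 against 0.637 and 0.646, so that control replicate 2 alone stood apart.

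**Figure D4:**
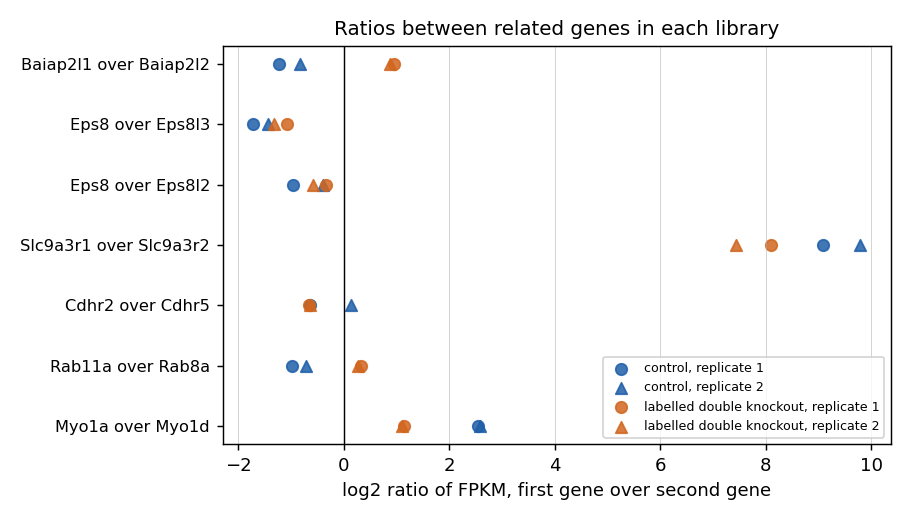
log2 ratio of FPKM (x axis) for 7 pairs of related genes, 1 point per library, circles for replicate 1 and triangles for replicate 2. The ratios of Baiap2l1 to Baiap2l2 and of Rab11a to Rab8a lie below 0 in the controls and above 0 in the labelled knockouts, and those of Eps8 to Eps8l2 and Cdhr2 to Cdhr5 overlap between groups.

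Other genes of the microvillus and the terminal web were taken from a list of 46 symbols, of which 44 were found and 36 tested. Of these 4 rose, 1 fell and 31 were not called, at a median difference of -0.04, where 3.77% of all genes rose and 5.80% fell. At an unadjusted limma p under 0.05, 8 stood higher and 3 lower, where 13.3% and 15.0% of all genes did. Baiap2, encoding IRSp53, the relative of the Baiap2l proteins that bends membrane with Eps8, rose from 1.45 and 1.39 FPKM in the controls to 17.3 and 15.8 in the labelled knockouts (11.6-fold, limma, adjusted p = 0.00251). Stk10, encoding a kinase that phosphorylates ezrin and its relatives, fell from 10.2 and 9.43 to 0.479 and 0.546 FPKM (19.1-fold, limma, adjusted p = 0.00307). Both were called in all 13 alternative fits. Stk10 passed the filter on low values only through its controls.

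Actn1, encoding an actin crosslinker, rose from 13.6 and 14.1 to 43.6 and 31.5 FPKM (limma, adjusted p = 0.0226), Myo5c, a motor of secretory vesicles, from 7.31 and 9.03 to 16.2 and 18.4 (limma, adjusted p = 0.0339), and Twf2, an actin capping protein, from 4.28 and 4.23 to 8.03 and 9.22 (limma, adjusted p = 0.0397). These 3 calls were lost in most fits without a library, while the differences ranged from 1.13 to 1.59 for Actn1, 0.86 to 1.14 for Myo5c and 0.78 to 0.96 for Twf2. Without control replicate 1 or 2 the limma adjusted p was 0.0997 and 0.111 for Actn1, 0.107 and 0.0889 for Myo5c, and 0.109 and 0.132 for Twf2. Without labelled knockout replicate 1 or 2 it was 0.0975 and 0.156 for Myo5c and 0.114 and 0.192 for Twf2, and without replicate 1 it was 0.0617 for Actn1.

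Other genes of apical trafficking and polarity came from a list of 56 symbols, some of them older names, of which 50 were found and 46 tested. Of these 0 rose, 3 fell and 43 were not called, at a median difference of 0.04. The difference lay above 0 for 27 of the 46 and below 0 for 19. Among all genes tested 3.77% rose and 5.80% fell. At an unadjusted limma p under 0.05, 3 stood higher and 4 lower, where 13.3% and 15.0% of all genes did. Vamp7 is listed at 0 in every library. Prkcz, encoding an atypical protein kinase C of the apical polarity complex, fell from 28.0 in both controls to 12.0 and 7.62 FPKM (limma, adjusted p = 0.0280). Prkci, encoding the other atypical protein kinase C of the list, stood the other way and was not called. It stood at 11.6 and 13.2 FPKM in the controls and at 21.8 and 18.4 in the labelled knockouts (limma, adjusted p = 0.0814). Rap2a, a small GTPase of the pathway that polarises the brush border, fell from 8.29 and 9.99 to 3.70 and 2.78 FPKM (limma, adjusted p = 0.0254). Pld1, encoding phospholipase D1, which acts above Rap2a in that pathway, fell from 38.4 and 46.8 to 20.3 in both labelled knockouts (limma, adjusted p = 0.0276). Without control replicate 1 or 2 the limma adjusted p was 0.109 and 0.127 for Prkcz, 0.0807 and 0.116 for Rap2a, and 0.0720 and 0.112 for Pld1. Without labelled knockout replicate 1 or 2 it was 0.0574 and 0.112 for Rap2a and 0.0942 and 0.106 for Pld1, and without replicate 2 it was 0.0667 for Prkcz.

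The tissue label was checked with marker lists, given as the summed FPKM of a list over the libraries. For comparison, 3.77% of all genes tested were called higher and 5.80% lower. At an unadjusted limma p under 0.05 these shares were 13.3% and 15.0%. Epithelial markers (Krt8 and Krt20 the most abundant) summed to 6665 to 8208 in the controls and 8901 to 9611 in the labelled knockouts. Of these 8 markers 1, Krt19, was called higher and 1, Epcam, lower. Enterocyte markers (Apoa4 and Apoa1) summed to 44589 to 48246 and 34963 to 51949, with 4 of 15 called lower and 0 higher by limma (7 and 0 at an unadjusted p under 0.05). The 4 were Sis, Lct, Treh and Mep1a, at 4.11%, 0.590%, 9.70% and 22.0% of the control mean. Over the 15 markers the difference lay below 0 for 11 and above 0 for 4. Crypt and proliferation markers (Olfm4 and Pcna) summed to 299 to 597 and 541 to 611, with 0 of 14 called by limma and 0 at an unadjusted p under 0.05. Immune markers (Gzma and Gzmb) summed to 84.1 to 128 and 61.9 to 178, with 1 of 8 tested, Itgam, called lower. At an unadjusted limma p under 0.05, 2 stood lower and 0 higher, the second being Lyz2. Lyz2 stood at 8.60 and 34.8 FPKM in the controls and at 1.86 and 2.66 in the labelled knockouts (limma, adjusted p = 0.0741). Differences lay above 0 for 4 of these 8 and below 0 for 4, at a median of 0.11. Itgam stood at 2.23 and 2.77 FPKM in the controls and at 0.706 and 0.549 in the labelled knockouts. It passed the filter on low values only through its controls. Stromal, muscle and endothelial markers (Tagln and Dcn) summed to 4.99 to 6.93 and 3.41 to 7.76. Goblet cell markers (Zg16 and Tff3) summed to 15734 to 18696 and 12285 to 16000, and Paneth cell markers (Defa24 and Lyz1) to 40729 to 45424 and 29055 to 62933. Of the 8 Paneth markers 1, Mptx2, was called lower (671 and 997 FPKM against 59.3 and 75.9), and 3 stood lower and 1 higher at an unadjusted limma p under 0.05. Enteroendocrine markers (Gip and Sct) summed to 629 to 762 in the controls and 149 to 239 in the labelled knockouts, with 5 of 8 called lower. Neurod1, among these 5, passed the filter on low values only through its controls. The part of the falls among enterocyte, enteroendocrine and Paneth markers, and of Itgam, in the values of the 31 genes was not tested.

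The authors' deposited table of their own comparison calls 5 of the 31 genes, all lower in the knockout, while of the 11594 genes it tested it calls 13.2% in either direction and 7.31% lower. In the authors' deposited table these are Pdzk1 (213 FPKM for control and 8.09 for the knockout, q = 0.000868), Cobl (q = 0.000868), Pdzd3 (q = 0.00159), Baiap2l2 (q = 0.00866) and Myo7b (q = 0.0105). Of these 5, limma also called 2, Pdzk1 and Myo7b. The 3 genes called by limma alone have q = 0.251 (Vil1), 0.0711 (Baiap2l1) and 0.101 (Tmigd1) in the authors' deposited table. Both tests read the same 4 libraries.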

How the data were processed

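The submitters' processing notes name TopHat2 (2.0.9), Cufflinks (2.1.1), Cuffnorm and Cuffdiff, and mm9 as the build, with no roles. The authors deposited a normalized table of the 4 libraries in which no unit is given; its values were read as FPKM, being like those of the deposited FPKM files of single libraries. The authors' deposited comparison table holds group FPKM, p-values and q-values, per the file headers. No file used here holds counts. In the files of single libraries low values step by single reads, and these steps put 1 read at 1.28 times the FPKM of control replicate 1 in control replicate 2, 1.51 times in labelled knockout replicate 1 and 2.18 times in replicate 2. Only 8.12% to 15.4% of low genes lay at these steps, so no order of depth was drawn from them, and absolute depth is unknown. Log2 values correlated across genes at r = 0.971 between controls, 0.961 between labelled knockouts and 0.884 to 0.904 between groups.

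Rows with the same symbol were summed (160 symbols) and 1030 short RNA symbols dropped. The 10885 genes averaging at least 1 FPKM, all 31 described genes among them, entered limma 3.58.1 (R 4.3.3). The fit used log2(FPKM + 1), a genotype term, an intensity trend and two-sided tests, with Benjamini-Hochberg adjustment over all genes tested and calls at an adjusted p under 0.05. The procedure was tested on simulated data. With 2 against 2 libraries the smallest exact permutation p is 0.333. Deposited starts count from 0 (spans equal RefSeq gene lengths for 10441 genes, against 617 otherwise) and are printed counted from 1. The members, lists and alternatives were chosen with earlier results of these data known. Named by rule were all 31 genes, the targeted genes and each called gene of the 2 further pathway lists. Overlapping neighbours, Prkci, Lyz2 and called marker genes were named after their values were seen. Alternatives changed the pseudocount, filter, scaling, source of the FPKM, variance trend and replicate block, and left out each library. The result of 1 further marker list is not reported here.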

Additional observations from a re-analysis of the deposited data

How the results depend on the processing

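Of the 31 genes 5 were called. The count was 3 (Pdzk1, Tmigd1 and Myo7b) with no filter but a mean above 0, and 1 to 5 when a library was left out. With the replicate number as a block it was also 3 (0 higher and 3 lower), and over all genes 786 (310 higher and 476 lower) against 1041. The numbers pair nothing the labels name, and same-numbered libraries did not deviate together (r = -0.00497 across genes). Over all genes 157 to 685 were called when a library was left out. These fits rest on 3 libraries. Over all genes 707 were called with no filter but a mean above 0. The remaining alternatives gave 5 or 6 called members and 877 to 1046 called genes. Among 41 named genes and 532 pairs of gene and alternative, 9 changed direction, all in genes not called. With FPKM estimated for each library alone Eps8 moved to 0.079 and Ezr to 0.0095. When a library was left out, the difference ranged from -0.26 to 0.033 for Eps8, -0.37 to 0.026 for Myo5b, -0.18 to 0.38 for Myo1e and -0.22 to 0.024 for Ezr. Tmigd1 in the labelled knockouts and Slc9a3r2 had the lowest FPKM of the 31 genes. How far depth limits these values cannot be told without counts.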
